A study of Mus musculus with 8 samples.

Results

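Collagen genes were examined in muscle stem cells of mice with reduced RhoA, taking as members all genes whose symbol has the form Col, a type number, a and a chain number. The rule found 44 collagen genes among the 57180 genes of the count table. Muscle stem cells, also called satellite cells, lie between the muscle fibre and its basement membrane, were sorted by flow cytometry and went straight to RNA without culture. There were 4 control libraries (labelled wild type, numbered 2, 5, 7 and 8) and 4 libraries from mice with a single floxed RhoA allele in the stem cells (SC-RhoAfl/+, called RhoA het here, numbered 5, 6, 7 and 8, whose genotype field reads RhoA knockdown). The labels name neither the Cre driver nor the age, the sex or the number of animals behind a library, so the p-values measure only the spread between these libraries.

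Collagens are secreted proteins made of chains wound into a triple helix. Fibrillar types form the fibres of connective tissue, type IV forms the sheet of basement membranes, type VI forms beaded filaments next to that sheet, and smaller families coat or link the others. In muscle stem cells, collagen V made by the cells themselves is known as a ligand of the calcitonin receptor that helps to keep them quiescent, its genes are known targets of Notch signalling, and collagen VI in the niche is known to be needed for normal self-renewal. RhoA is a small GTPase that controls actin tension.

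Each library held between 19138763 and 25606342 fragments assigned to genes. Levels are given as TPM (counts divided by gene length and scaled to a common total), which allow levels of different genes to be set side by side. Rhoa itself stood at 132, 148, 121 and 136 TPM in control libraries 2, 5, 7 and 8 and at 117, 111, 112 and 125 TPM in RhoA het libraries 5, 6, 7 and 8, a log2 fold change of -0.29 (SE 0.13) with an unadjusted p of 0.0495 and an adjusted p of 1.00 in edgeR's quasi-likelihood test. The groups overlapped through RhoA het 8 and control 7, and fragments from outside the deleted part of the gene are counted too. All 10 stem cell markers looked at were above 0 in every library, Pax7 between 46.6 and 100.1 TPM. Markers of fibro-adipogenic cells, the connective tissue cells of muscle, summed to between 264 and 1514 TPM, and the 6 immune markers to between 236 and 829 TPM, most of it Lyz2 (209 to 817 TPM), with Cd74 reaching 93.0 TPM and Ptprc 0.742 TPM in RhoA het 6. In such bulk RNA, fewer cells of a type and less RNA per cell cannot be told apart.

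Collagen genes together made up between 0.373% (control 2) and 1.72% (control 5) of the fragments of a library. Of the 44 members, 7 had a mean level of at least 100 TPM over the 8 libraries, 17 at least 10 TPM and 33 at least 1 TPM. The order of mean levels began with Col3a1 (976 TPM) and Col1a1 (631 TPM), the main chains of fibrous collagen, then Col6a1 (420.2 TPM), Col4a1 (249 TPM), Col5a3 (173 TPM), Col20a1 (139 TPM) and Col5a2 (129.6 TPM). Col3a1 exceeded Col1a1 in 8 of 8 libraries, as Col6a1 exceeded Col4a1 and Col4a1 exceeded Col5a3, whereas the order of the other neighbours changed between libraries: Col1a1 exceeded Col6a1 in 4 of 8, Col5a3 exceeded Col20a1 in 5 of 8 and Col20a1 exceeded Col5a2 in 4 of 8. Fibrillar collagens held 47.2% to 69.9% of all collagen TPM, beaded filament collagens 11.5% to 19.6%, basement membrane network collagens 9.31% to 16.3%, and the collagens that sit on fibre surfaces (FACIT types) 4.06% to 11.9%.

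**Figure D1:**
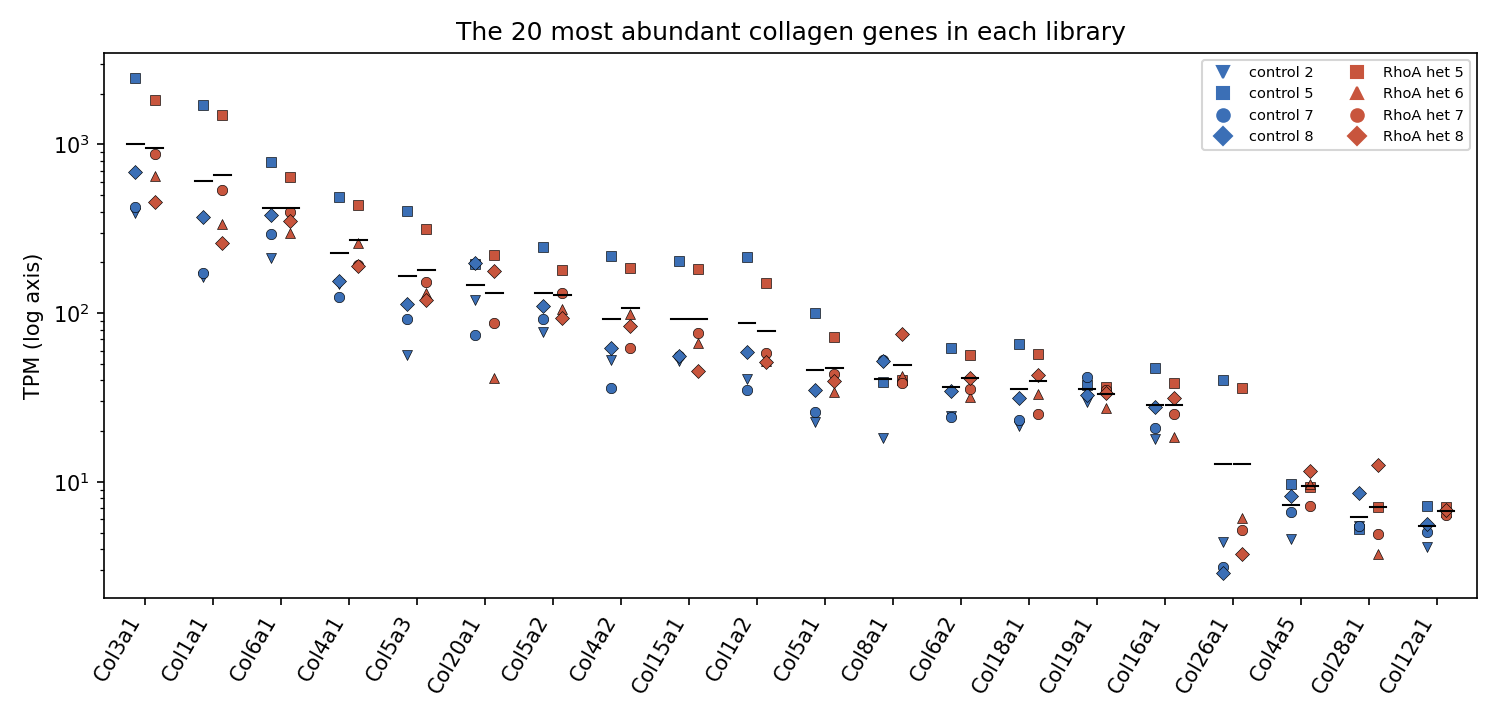
TPM on a log axis of the 20 collagen genes with the highest mean level, ordered by that mean. Each point is a library (blue for control, red for RhoA het, the symbol shape for the replicate number) and each short black line a group mean of 4 libraries. The squares of control 5 and RhoA het 5 are the 2 highest points for Col3a1, Col1a1, Col6a1, Col4a1 and Col5a3, and the 2 groups overlap for each gene.

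No collagen gene differed between RhoA het and control cells past the threshold of an adjusted p of 0.05. In the test over the 15660 genes with enough counts, 0 of the 40 collagen genes tested and 0 of all genes (0%) passed it, with edgeR and with DESeq2 alike, and with the replicate number as a block 0 of 40 beside 2 of 15714 genes (0.0127%). At an unadjusted p under 0.05, edgeR gave 0 of the 40 collagen genes beside 372 of all genes (2.38%), and DESeq2 0 of the 40 beside 344 (2.2%). The 4 members not tested for low counts were Col6a4, Col9a1, Col10a1 and Col25a1. No collagen gene had all 4 RhoA het libraries on one side of all 4 control libraries, an arrangement that 284 of the 15660 genes showed (1.81%).

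The median log2 fold change over the 40 collagen genes was 0.11, with 26 higher and 14 lower in RhoA het, beside a median of -0.0007 over all genes tested. Without control 7 that median was -0.06 (15 of 42 higher), and without RhoA het 5 it was -0.08 (17 of 41 higher), so the direction rested on single libraries. On log2(TPM + 1) values 33 of 40 were higher, on a scale where the median of all genes was itself 0.068. For 13 of the 40 the 95% confidence interval of the fold change lay within a 2-fold change either way. With the replicate number as a block and only libraries whose number occurs in both groups, this held for 29 of 40. The block and the set of libraries both changed, so the rise cannot be put down to either alone. Without control 5, 7 of 41 collagen genes (Col2a1, Col4a1, Col4a2, Col5a1, Col5a3, Col9a2 and Col12a1) had an unadjusted p under 0.05 in edgeR, beside 4.36% of all genes, with adjusted p-values of 0.999. That fit keeps RhoA het 5, and Col2a1, Col4a1, Col4a2, Col5a1 and Col5a3 were highest in both libraries numbered 5. With both libraries numbered 5 left out, 2 of 40 (5%), Col5a3 and Col9a2, had an unadjusted edgeR p under 0.05, beside 3.68% of all genes.

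**Figure D2:**
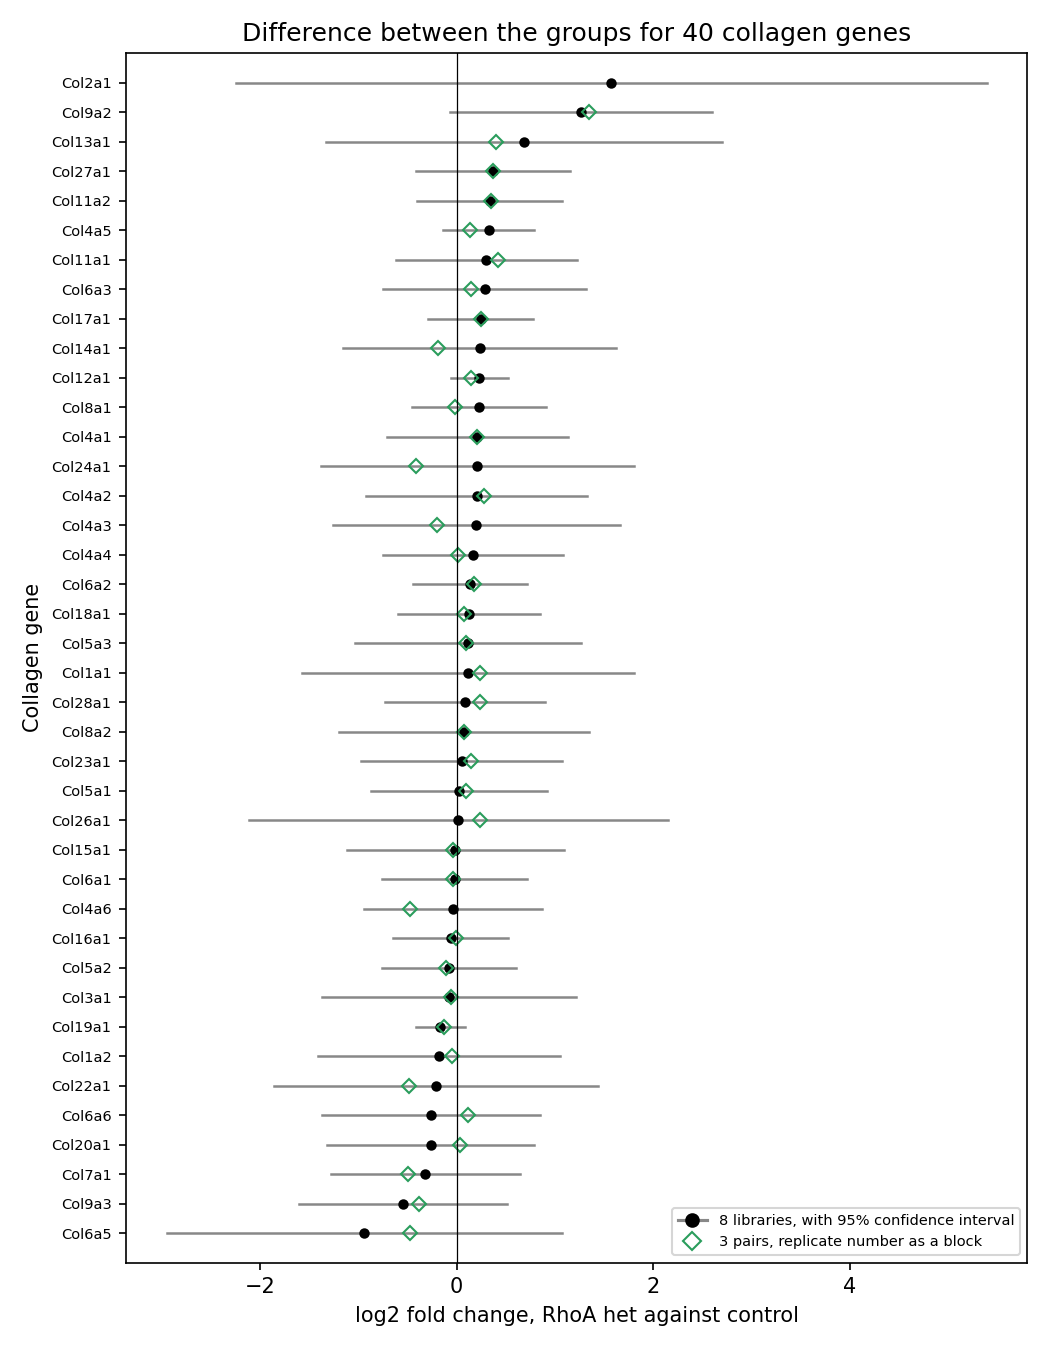
Log2 fold change of RhoA het against control for the 40 collagen genes tested, ordered by size. Black points are edgeR values from 8 libraries with their 95% confidence intervals (grey lines), and green diamonds are values from the 3 pairs of same-numbered libraries with the number as a block. Every black interval crosses 0, from Col6a5 at -0.94 to Col2a1 at 1.57.

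The fibrillar collagens I and III, the building material of collagen fibres, were abundant in every library and varied more among libraries of a group than between the groups. Col3a1 (chromosome 1, 45350698 to 45388866, mm39, plus strand) stood at 395, 2485, 428 and 691 TPM in control 2, 5, 7 and 8 and at 1828, 647, 876 and 456 TPM in RhoA het 5, 6, 7 and 8. Both libraries numbered 5 were above all others, and the other 6 overlapped. The log2 fold change was -0.08 (SE 0.58, two-sided exact permutation p = 0.886, where the smallest possible is 0.0286).

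Col1a1, the more abundant chain of collagen I (chromosome 11, 94827050 to 94843868, plus strand), had 164, 1717, 173 and 372 TPM in the controls and 1485, 338, 535 and 262 TPM in RhoA het. Again the libraries numbered 5 were the 2 highest, and the lower of them held 2.66 times the CPM (counts scaled to a common library total) of the next library. The fitted log2 fold change was 0.11 (SE 0.75), with a 95% confidence interval from -1.57 to 1.80. Its partner chain Col1a2 (chromosome 6) ran from 35.0 to 59.0 TPM in the 3 other controls and reached 216 TPM in control 5, with 152 TPM in RhoA het 5 and 51.2 to 58.2 TPM in the other RhoA het libraries. Among same-numbered libraries the differences pointed different ways: Col1a1 was lower in RhoA het for number 5 (log2 difference -0.17) and number 8 (-0.62) and higher for number 7 (1.63).

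Collagen V, a minor partner of collagen I in fibres and the type tied to quiescence, was carried mostly by Col5a3 and Col5a2, and neither these nor Col5a1 differed between the groups. Col5a3 (chromosome 9, 20681346 to 20726363, minus strand) stood at 56.2, 404, 91.8 and 114 TPM in control 2, 5, 7 and 8 and at 318, 132, 153 and 119 TPM in RhoA het 5, 6, 7 and 8. Control 2 was the lowest library, both libraries numbered 5 were the highest, and the 5 others lay between 91.8 and 153 TPM. The log2 fold change was 0.12 (SE 0.51, 95% confidence interval -1.04 to 1.27). With both libraries numbered 5 left out, it was 0.51 with an unadjusted edgeR p of 0.0465 and an adjusted p of 0.999, beside 3.68% of all genes with an unadjusted p under 0.05 in that fit.

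Col5a2 (chromosome 1, 45413481 to 45542442, minus strand) had 77.6, 246, 92.1 and 110.2 TPM in the controls and 181, 105, 132 and 93.2 TPM in RhoA het, a log2 fold change of -0.08 (SE 0.30). Col5a1, the chain found in most collagen V molecules (chromosome 2, 27776437 to 27929526, plus strand), was the least abundant of the 3, with 22.5, 100.1, 25.9 and 35.2 TPM in the controls and 72.7, 33.9, 43.6 and 39.6 TPM in RhoA het. Its log2 fold change was 0.02 (SE 0.40, 95% confidence interval -0.87 to 0.92). Col5a1 shares exon bases with 2 genes on the opposite strand, and the counting set no strand option, so a part of its fragments is uncertain. Summed collagen V ran from 156 TPM (control 2) to 749 TPM (control 5), with 571 TPM in RhoA het 5 and 209.8 to 328 TPM in the other 5 libraries.

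Because collagen I, III and V genes were high in the same libraries, the bases upstream of their starts were compared. RefSeq promoter windows (build GRCm38.p6) were found for 35 of the 44 collagen genes, and Col1a1 and Col5a2 were not among them. Shown are 4 of those genes, 5′ to 3′ on the strand of the gene, reading up to the base before the start except for Col1a2, where exon bases of another transcript were left out and the stretch ends 126 bases before the start. Capitals mark CCAAT (bound by NF-Y), GGGCGG (the GC box) and TATAAA (the TATA box), each on either strand. The windows are chr6:4505370-4505492 (plus strand) for Col1a2, chr1:45311288-45311537 (plus) for Col3a1, chr2:27886175-27886424 (plus) for Col5a1 and chr9:20815068-20815317 (minus) for Col5a3.
Col1a2: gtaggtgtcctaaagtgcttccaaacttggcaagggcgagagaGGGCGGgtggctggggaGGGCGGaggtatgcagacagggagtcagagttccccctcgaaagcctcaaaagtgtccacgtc
Col3a1: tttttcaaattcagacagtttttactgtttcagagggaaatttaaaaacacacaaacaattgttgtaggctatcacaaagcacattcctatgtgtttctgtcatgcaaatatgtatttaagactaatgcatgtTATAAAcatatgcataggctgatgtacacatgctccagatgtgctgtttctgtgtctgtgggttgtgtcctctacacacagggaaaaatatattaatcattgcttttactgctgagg
Col5a1: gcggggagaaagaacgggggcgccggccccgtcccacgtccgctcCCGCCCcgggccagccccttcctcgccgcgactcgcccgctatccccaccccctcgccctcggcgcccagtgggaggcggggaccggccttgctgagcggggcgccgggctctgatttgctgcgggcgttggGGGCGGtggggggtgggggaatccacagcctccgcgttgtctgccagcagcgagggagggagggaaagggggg
Col5a3: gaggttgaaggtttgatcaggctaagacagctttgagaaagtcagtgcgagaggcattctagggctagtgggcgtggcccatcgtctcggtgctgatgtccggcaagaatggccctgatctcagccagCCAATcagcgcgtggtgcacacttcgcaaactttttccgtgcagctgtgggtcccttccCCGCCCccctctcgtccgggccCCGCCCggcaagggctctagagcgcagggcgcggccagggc

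The windows shown in full differed in the marked letters although the genes were high in the same 2 libraries. Col3a1 had TATAAA and no GGGCGG, and its TATAAA lay near the middle of the 250 bases, not close to the start. Col5a1 had GGGCGG and no TATAAA, and Col5a3 had CCAAT and GGGCGG. Col1a2 had GGGCGG, but its stretch ends 126 bases before the start and cannot show which letters lie closer. Within the 250 bases before the start, GGGCGG on either strand was present in 22 of 38 collagen windows (57.9%), in 10 of the 15 windows of collagen genes that were highest in both libraries numbered 5 (66.7%) and in 32.7% of all 32851 windows of the table. CCAAT was present in 34.2%, 46.7% and 33.8% of these sets, TATAAA in 13.2%, 6.67% and 12.4%, the core TGGGAA read by the Notch effector RBPJ in 31.6%, 6.67% and 21.6%, and the core GGAATG read by TEAD factors in 10.5%, 20% and 12.6%. TGGGAA and GGAATG can share letters, and a stretch that held both was counted for both. A match is only a match of letters, and some genes have more than 1 window.

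Collagen VI, the beaded filament type of the stem cell niche, showed no difference between the groups in any of its tested chains, and across libraries Col6a3 did not follow Col6a1 and Col6a2. Col6a1 (chromosome 10, 76544626 to 76562002, minus strand) stood at 214, 783, 293 and 381 TPM in control 2, 5, 7 and 8 and at 642, 297, 399 and 352 TPM in RhoA het 5, 6, 7 and 8. The libraries numbered 5 were again the highest. The log2 fold change was -0.02 (SE 0.33, 95% confidence interval -0.76 to 0.72).

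Col6a2, whose chain pairs with that of Col6a1, was likewise highest in the libraries numbered 5, with 62.0 and 56.7 TPM in control 5 and RhoA het 5 and 24.1 to 41.1 TPM elsewhere (log2 fold change 0.13, SE 0.26). Col6a3, the largest chain of the usual molecule (chromosome 1, 90693645 to 90771693, minus strand), did not follow them: it stood at 4.71, 4.25, 3.05 and 8.20 TPM in the controls and at 4.00, 6.83, 3.21 and 12.3 TPM in RhoA het. Here the libraries numbered 8 were the 2 highest and those numbered 5 and 7 the 4 lowest. Its log2 fold change was 0.28 (SE 0.46). The chains that can replace it were scarce: Col6a4 reached at most 0.656 TPM, Col6a5 1.498 TPM and Col6a6 1.29 TPM.

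**Figure D3:**
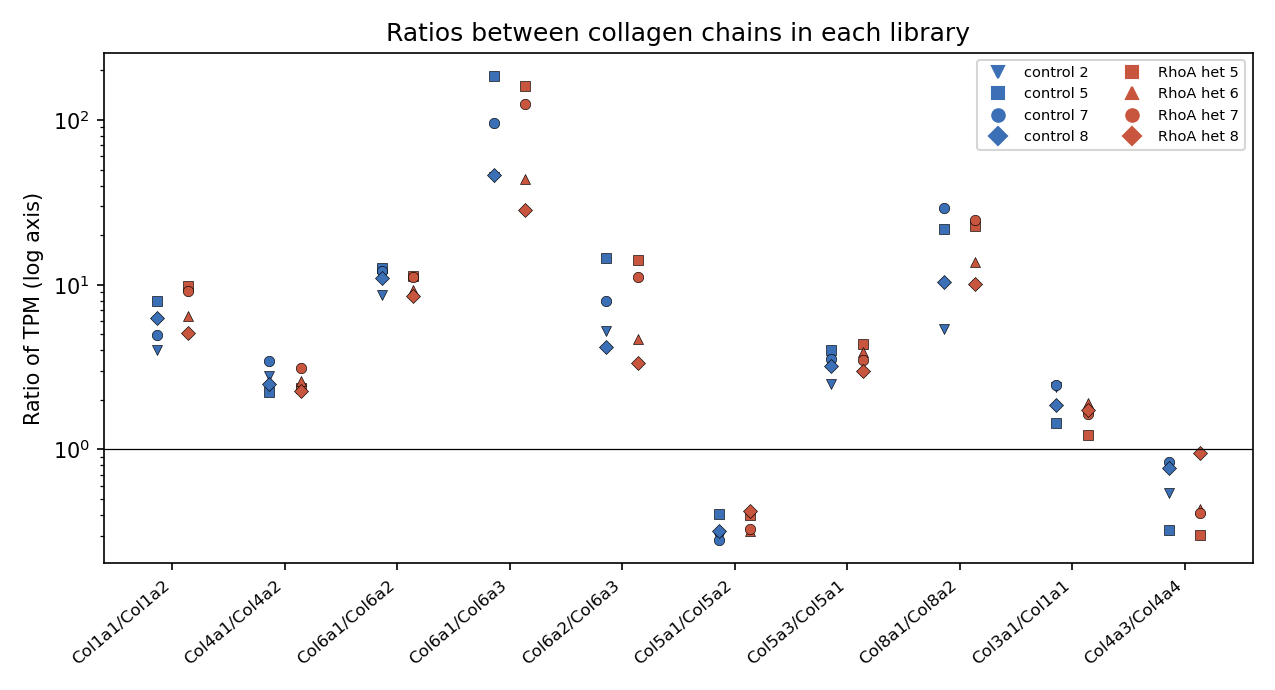
Ratio of TPM between 2 collagen genes, on a log axis, for 10 pairs of chains. Each point is a library (blue for control, red for RhoA het, shape for the replicate number), and the line marks equal levels. Col6a1 over Col6a3 spreads from 28.6 to 184 with both squares (libraries numbered 5) on top, whereas Col4a1 over Col4a2 stays between 2.24 and 3.45.

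Ratios between chains showed which genes kept step. Col6a1 exceeded Col6a2 by 8.58 to 12.6 times in the 8 libraries, a narrow range for genes whose own levels varied 3.67-fold and 2.57-fold. The ratio of Col6a1 to Col6a3 was 184 in control 5 and 160.5 in RhoA het 5 but 28.6 in RhoA het 8 and 46.5 in control 8. Col1a1 exceeded Col1a2 by 4.01 to 9.78 times, Col3a1 exceeded Col1a1 by 1.23 to 2.48 times with the lowest values in both libraries numbered 5, and Col5a3 exceeded Col5a1 by 2.49 to 4.37 times with the highest there. These ratios are of RNA per length and depend on the annotated exon length of each gene.

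The basement membrane chains of collagen IV were split into abundant and scarce pairs, and none differed between the groups. Col4a1 (chromosome 8, 11248423 to 11362826, minus strand), a chain of the common network, had 148, 486, 124 and 155 TPM in the controls and 436, 259, 194 and 190.2 TPM in RhoA het, a log2 fold change of 0.21 (SE 0.41). Both libraries numbered 5 were the highest and RhoA het 6 came next. Markers of endothelial cells, which also make this chain, summed to 508 TPM in RhoA het 6 and to at most 179 TPM in the other libraries, and their part in the result was not tested.

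Col4a2, the partner chain, starts 21 bases from Col4a1 on the opposite strand with the first bases overlapping, so a small part of the fragments of both is uncertain. Its levels were 53.0, 217, 36.0 and 62.0 TPM in the controls and 184, 99.2, 62.4 and 84.0 TPM in RhoA het (log2 fold change 0.20, SE 0.50). Col4a5 reached 4.61 to 11.6 TPM with a log2 fold change of 0.32 (SE 0.21, exact permutation p = 0.200), and Col4a3, Col4a4 and Col4a6 stayed at or below 3.76 TPM. Col4a3 and Col4a4 also lie head to head, 72 bases apart on chromosome 1, and were both highest in the libraries numbered 8. Of all collagen genes tested, Col4a6 was the only one lowest in both libraries numbered 5 (0.667 and 0.532 TPM).

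The multiplexins, proteoglycan-like collagens of basement membranes, had the same libraries on top as Col4a1. Col15a1 stood at 204 TPM in control 5 and 183 TPM in RhoA het 5 and between 45.6 and 76.8 TPM in the other 6 libraries (log2 fold change -0.01, SE 0.49). Col18a1, the source of endostatin, stood at 65.9 and 57.4 TPM in the libraries numbered 5 and at 21.5 to 43.2 TPM in the others (log2 fold change 0.12, SE 0.32).

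Among the FACIT collagens, Col20a1 was the sixth most abundant collagen gene and followed another order. It had 119.8, 196, 74.2 and 198 TPM in the controls and 219.9, 41.3, 87.1 and 179 TPM in RhoA het, so that libraries numbered 5 and 8 were high in both groups, and the log2 fold change was -0.27 (SE 0.47). Col19a1, found in developing muscle, was the steadiest collagen gene above 10 TPM: it lay between 27.4 and 41.9 TPM, a 1.53-fold range. Its log2 fold change was -0.17 (SE 0.11, unadjusted edgeR p = 0.159, exact permutation p = 0.0857). Col12a1, which binds to collagen I fibres, had 4.12, 7.21, 5.04 and 5.61 TPM in the controls and 7.14, 6.62, 6.32 and 6.79 TPM in RhoA het (log2 fold change 0.23, SE 0.13, unadjusted edgeR p = 0.108, exact permutation p = 0.0571). Every RhoA het library exceeded 3 of the 4 controls for this gene, and control 5 was level with the RhoA het libraries: it had the highest TPM of all, but a lower CPM than RhoA het 5, 6 and 8.

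The cartilage-type collagens Col2a1, Col9a1, Col9a2 and Col10a1 were close to the detection limit in most libraries. Their fold changes, some of them large, rested on few fragments or single libraries. Col9a2 had 6, 21, 3 and 14 fragments in control 2, 5, 7 and 8 and 37, 19, 14 and 33 fragments in RhoA het 5, 6, 7 and 8. It was the collagen gene with the smallest p: the log2 fold change was 1.27 (SE 0.60, unadjusted edgeR p = 0.0602, adjusted p = 1.00, exact permutation p = 0.143), and the 3 same-numbered pairs gave log2 differences of 0.78, 1.81 and 1.25, all higher in RhoA het. With the replicate number as a block the log2 fold change was 1.35, with an unadjusted edgeR p of 0.0137 and an adjusted p of 0.788, beside 5.26% of all genes under an unadjusted 0.05.

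Col2a1, the main fibrillar chain of cartilage, had 3, 178, 3 and 2 fragments in the controls and 521, 11, 5 and 9 in RhoA het, so 2 libraries of different groups held nearly all of them. Its log2 fold change of 1.57 (SE 1.70) was -2.41 without RhoA het 5 and 5.67 without control 5. Col10a1, a marker of hypertrophic cartilage, had 233 fragments in RhoA het 5 and at most 8 in any other library, and Col9a1 had 41 and 68 fragments in the libraries numbered 5 and at most 11 elsewhere. Col9a3 lay at 1.95 to 6.43 TPM in the controls and 0.948 to 4.32 TPM in RhoA het (log2 fold change -0.54, SE 0.47), and it shares exon bases with Tcfl5 on the opposite strand.

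The short-chain, transmembrane and remaining collagens were mostly low. Col8a1, a network chain of vessel walls, stood at 18.2, 39.3, 52.7 and 52.2 TPM in the controls and 40.2, 42.6, 38.5 and 74.9 TPM in RhoA het (log2 fold change 0.23, SE 0.30). Col26a1 had the widest range among genes above 10 TPM, with 40.3 TPM in control 5, 36.0 TPM in RhoA het 5 and 2.88 to 6.13 TPM in the other 6 libraries, yet a log2 fold change of 0.02 (SE 0.95). Col17a1, a transmembrane collagen, lay between 2.41 and 5.13 TPM, and Col13a1, Col23a1 and Col25a1 stayed at or below 1.22 TPM.

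Many of these genes had their highest levels in both libraries of a replicate number, here compared in CPM, whose scaling differs slightly from that of TPM. Both libraries numbered 5 were above the other 6 for 18 of the 40 collagen genes tested (45%), an order shown by 11.3% of all genes tested, and below them for 1 (2.5%), beside 10.6% of all genes. The 18 were Col1a1, Col1a2, Col2a1, Col3a1, Col4a1, Col4a2, Col5a1, Col5a2, Col5a3, Col6a1, Col6a2, Col7a1, Col9a3, Col15a1, Col16a1, Col18a1, Col26a1 and Col27a1, which took in 8 of the 11 fibrillar genes. In CPM the lower of the libraries numbered 5 exceeded the highest other library by a median of 1.54 times over these 18 genes, from 1.04 times for Col9a3 to 15.8 times for Col2a1. This order was noticed in these libraries and is given as a description without a test.

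In CPM, libraries numbered 8 were above the rest for 7 of the 40 genes (17.5%, beside 6.88% of all genes): Col4a3, Col4a4, Col6a3, Col8a1, Col8a2, Col11a1 and Col28a1. For Col8a1 this order did not hold in TPM, where control 7 was just above control 8. Those numbered 7 were above the rest for 0 of 40 (4.56% of all genes) and below them for 9 of 40 (22.5%, beside 4.45%), while those numbered 8 were below the rest for 0 of 40 (4.09% of all genes). Within pairs of the same number, RhoA het exceeded control in CPM for 15 of the 40 genes in number 5, 26 in number 7 and 25 in number 8. A higher CPM in all 3 pairs was seen for 5 genes (12.5%, beside 13.6% of all genes), Col2a1, Col9a2, Col11a1, Col12a1 and Col27a1, and a lower CPM in all 3 for 1 gene, Col4a6 (2.5%, beside 12.5%). The labels do not say what the number stands for.

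**Figure D4:**
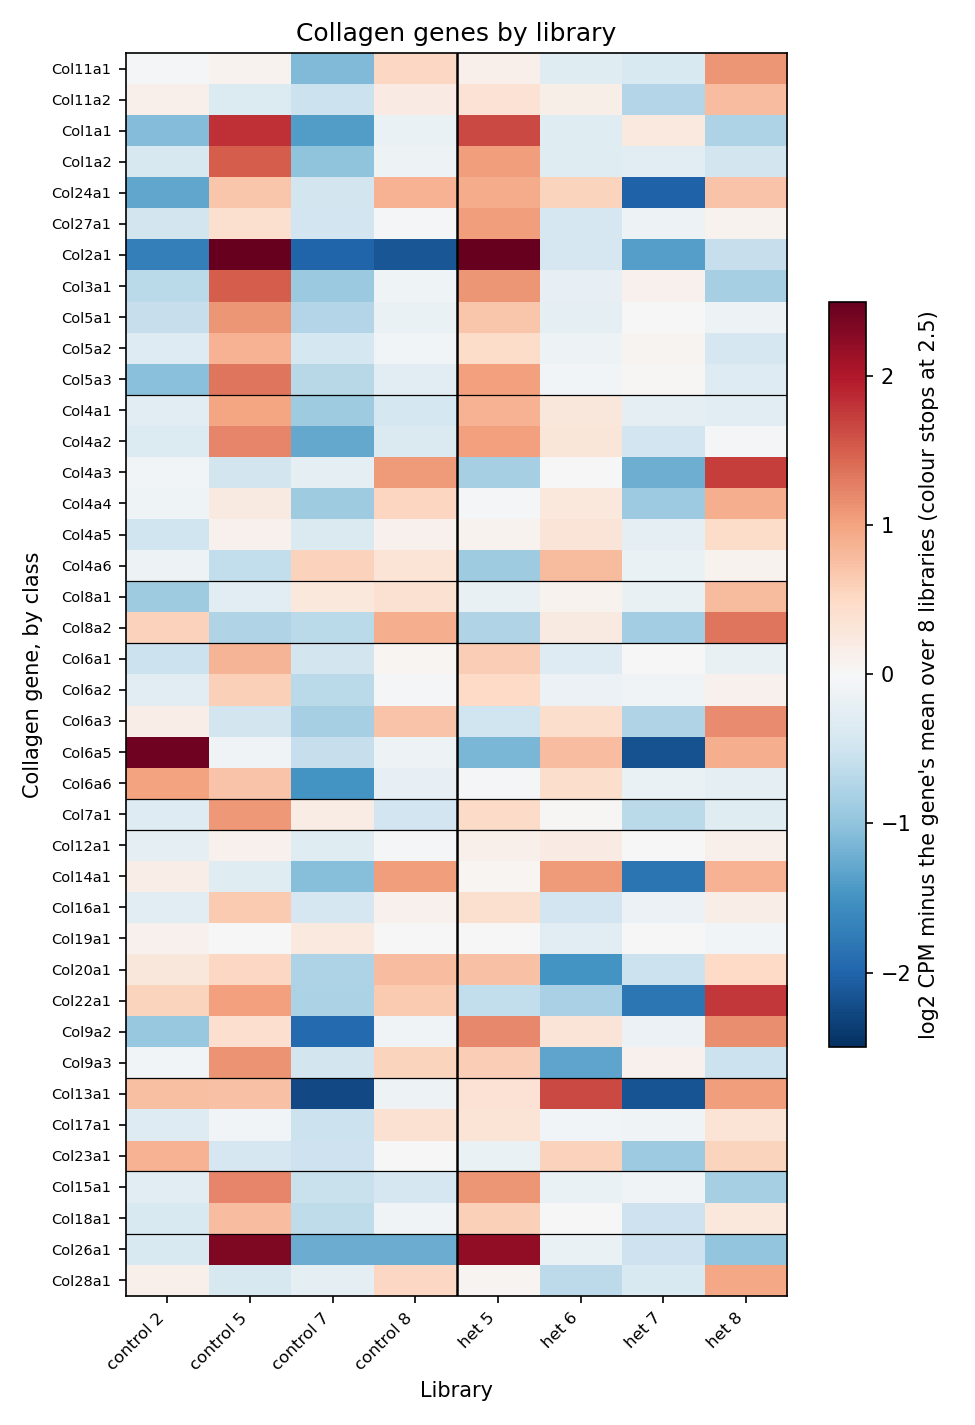
Deviation of log2 CPM from the mean of the gene over the 8 libraries (colour, red above and blue below), for the 40 collagen genes tested (rows, grouped by class) in each library (columns, control left of the line). Red columns for control 5 and RhoA het 5 cover most fibrillar genes, Col4a1, Col4a2, Col6a1 and Col6a2, whereas Col6a3 and Col4a3 are red in the libraries numbered 8.

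The summed fibro-adipogenic and tendon markers were not highest in the libraries where collagens I, III and V and the chains Col6a1 and Col6a2 were highest. The 10 fibro-adipogenic markers summed to 264 TPM in control 5 and 443 TPM in RhoA het 5, where collagen RNA was highest (7411 and 6049 TPM over all 44 genes), and to 381 to 1514 TPM in the other libraries, where collagen RNA was 1502 to 2821 TPM. The 2 libraries numbered 5 were both the highest for 0 of these 10 markers and both the lowest for 3, orders shown by 11.3% and 10.6% of all genes. Tendon markers summed to 212 and 126 TPM in control 5 and RhoA het 5 and to 42.3 to 379 TPM elsewhere. Mural markers summed to 1289 and 919 TPM in control 5 and RhoA het 5 and to 510 to 2252 TPM elsewhere. For endothelial markers the sums were 179 and 133 TPM in control 5 and RhoA het 5 and 69.4 to 508 TPM elsewhere. Col6a3 was highest in RhoA het 8 and control 8, which had fibro-adipogenic sums of 1514 and 1008 TPM. In control 2, however, Col6a3 was at 4.71 TPM beside a sum of 1125 TPM, and control 5, with the lowest sum, had more Col6a3 (4.25 TPM) than control 7 (3.05 TPM, sum 381 TPM).

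The proliferation genes Mki67 and Top2a were also high in the libraries numbered 5: Mki67 stood at 20.5 TPM in control 5 and 13.0 TPM in RhoA het 5 and at or below 1.16 TPM elsewhere, and Top2a at 40.4 and 24.7 TPM and at or below 3.39 TPM elsewhere. Myofibre markers summed to 967 TPM in control 5 and 379.6 TPM in RhoA het 5, and to 78.0 to 781 TPM elsewhere. The part of these cell types and genes in the collagen levels was not tested.

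**Figure D5:**
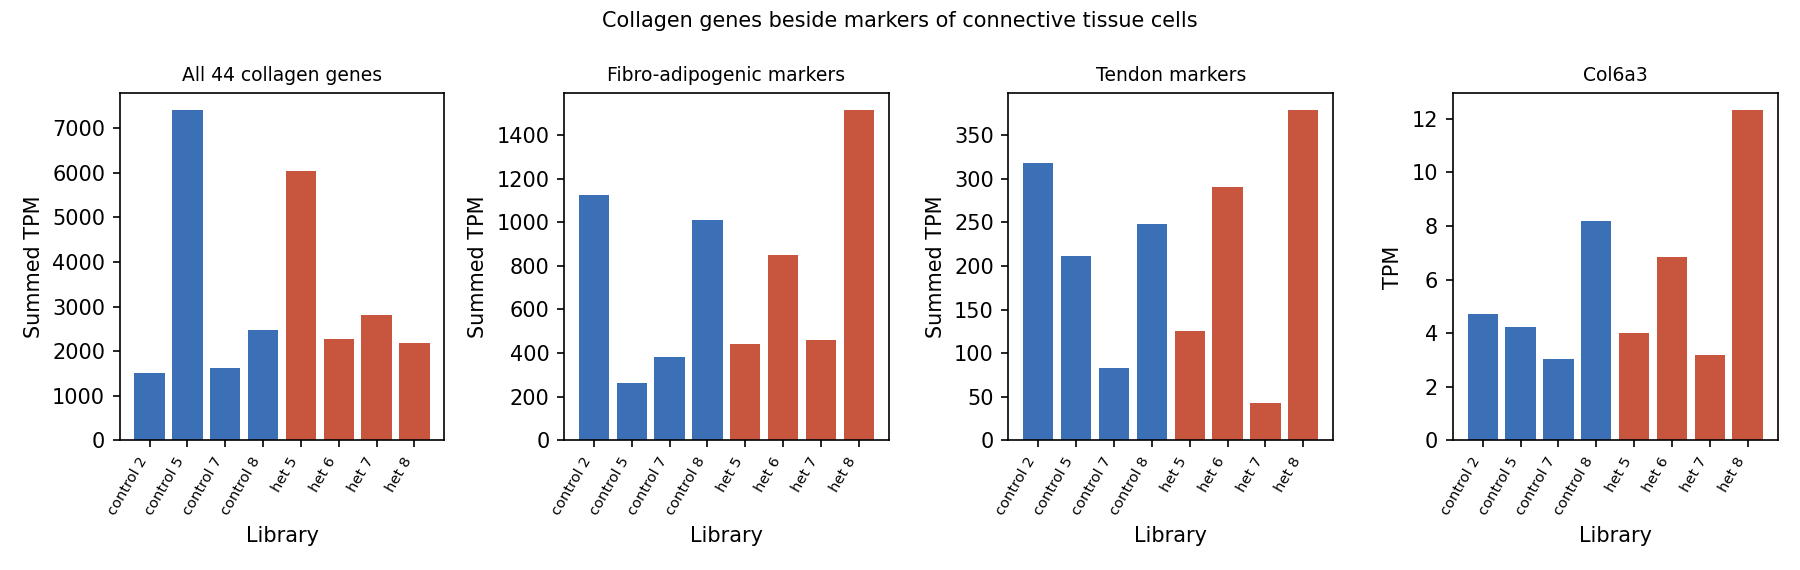
Summed TPM of all 44 collagen genes, of 10 fibro-adipogenic markers and of 6 tendon markers, and TPM of Col6a3, in each of the 8 libraries (blue bars for control, red for RhoA het). The collagen sum is highest in control 5 (7411) and RhoA het 5 (6049), the fibro-adipogenic sum is lowest in control 5 (264), and Col6a3 is highest in RhoA het 8 (12.3).

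Genes that make, process and sense collagen showed no difference between the groups either. Of 70 such genes in 4 lists, 66 were tested, and 0 passed an adjusted p of 0.05 or an unadjusted p under 0.05 in edgeR, beside 2.38% of all genes at the latter. With the replicate number as a block, each of the 4 lists had 1 gene at an unadjusted edgeR p under 0.05, beside 5.26% of all genes. The 24 tested genes of synthesis in the endoplasmic reticulum had a median log2 fold change of -0.02 (10 higher, 14 lower), and the smallest p-values belonged to Creb3l1, a transcription factor of collagen secretion (log2 fold change -0.34, SE 0.26), and Sec24d of the secretory coat (log2 fold change -0.20, SE 0.19). Serpinh1, the collagen chaperone HSP47, had 1273, 4198, 1933 and 2392 TPM in the controls and 3847, 1630.5, 2708 and 2119 TPM in RhoA het, with the libraries numbered 5 highest as for its clients. In all, 6 of the 24 synthesis genes shared that order, shown by 11.3% of all genes.

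The 16 tested genes of extracellular processing and crosslinking had a median log2 fold change of 0.15 (13 higher, 3 lower). Adamts3, a procollagen N-proteinase, had the smallest p (log2 fold change -0.60, SE 0.31, unadjusted edgeR p = 0.0877, exact permutation p = 0.114), and the crosslinking enzyme Tgm2 had a log2 fold change of 0.49 (SE 0.48) with 90.7 TPM in RhoA het 6 and at most 45.9 TPM elsewhere. Without that library the value was -0.18, and within the 3 pairs it was -0.07. Sparc, a collagen-binding glycoprotein, stood at 2776 and 2567 TPM in control 5 and RhoA het 5 and at 633 to 1016 TPM elsewhere, the order of the collagens it binds. Of the 16 genes, 5 shared that order, shown by 11.3% of all genes.

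Among collagen receptors, 9 of the 14 tested were higher and 5 lower in RhoA het (median log2 fold change 0.15). Calcr, the calcitonin receptor bound by collagen V, had 68.7, 106, 93.0 and 48.8 TPM in the controls and 78.9, 98.1, 91.7 and 55.0 TPM in RhoA het (log2 fold change -0.02, SE 0.24). Control 8 and RhoA het 8 were the lowest libraries of their groups, and the groups overlapped throughout. Itgb1, the beta chain shared by collagen-binding integrins, was highest in the libraries numbered 5 (1009.5 and 981 TPM, beside 523 to 814 TPM), as were the collagen-activated kinases Ddr1 and Ddr2. That order held for 4 of the 14 receptors tested, beside 11.3% of all genes. Ddr2 had a log2 fold change of 0.19 (SE 0.15). Adgrg1, a receptor of collagen III, had 32.0 TPM in RhoA het 6 and at most 11.3 TPM elsewhere, and its log2 fold change of 0.99 (SE 0.50) was -0.01 within the 3 pairs.

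Of the 12 genes of Notch signalling, the pathway known to drive collagen V in quiescent cells, 10 had higher and 2 lower fitted values in RhoA het (median log2 fold change 0.09), and 0 were past an unadjusted p of 0.05. The ligand gene Jag1 had 21.4, 25.4, 15.4 and 18.3 TPM in the controls and 34.2, 26.6, 19.9 and 25.0 TPM in RhoA het (log2 fold change 0.30, SE 0.21, edgeR unadjusted p = 0.180). Within the 3 pairs it was 0.37 with an unadjusted edgeR p of 0.0112 and an adjusted p of 0.755. Dll4, a ligand made by endothelial cells, had a log2 fold change of 2.10 (SE 0.97), with 20.7 TPM in RhoA het 6, the library with the highest endothelial marker sum, and at most 3.82 TPM elsewhere. Within the 3 pairs, which leave that library out, its value was -0.13. Of the 12 genes, 1 was highest in both libraries numbered 5, an order shown by 11.3% of all genes. The Notch target Heyl, at 196 to 375 TPM, had its highest levels in RhoA het 7 and control 2. The part of Notch signalling in the collagen levels was not tested.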

How the data were processed

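RNA of 8 libraries was measured by paired-end sequencing after low-input template-switching library preparation, per the labels' protocols. The authors deposited a table of counts (whole fragments per gene) made with featureCounts 1.6.4 over exons of the GENCODE mouse release 34 annotation on mm39, per the file headers, after trimming with cutadapt and alignment with STAR, per the submitters' processing notes. No strand or multi-mapping option was set, so fragments shared by overlapping genes or near-identical copies are uncertain. The header named 10 alignments and the table holds 8 libraries; the others were not analysed here. The TPM values the authors deposited equalled counts over length when recomputed (largest relative difference 4.97e-15).

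Symbols came from GENCODE release 21, which named 51884 of 57180 genes. Counts of all 8 libraries were fitted with edgeR 4.0.16 (R 4.3.3; TMM scaling, filterByExpr, quasi-likelihood F test, Benjamini-Hochberg over 15660 genes, no block), after the script was tested on simulated data. DESeq2 1.42.0 and limma 3.58.1 were alternatives. Single genes had a two-sided exact permutation test over the 70 splits of 4 against 4. Deviations of same-numbered libraries from their group means correlated at 0.544 (number 5), 0.231 (number 7) and 0.488 (number 8) over genes, so the numbers were treated as pairing the libraries in the block fit; the labels give no reason for the pairing. Within each group, no 2 libraries were copies of each other. Libraries of different groups were not compared in this way.

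The collagen genes, the pathway and marker lists and the tests were chosen with earlier results of these data known. Named by rule were all collagen V and VI genes, the chief chains of types I, III, IV, XV and XVIII, the 10 most abundant members, the members with the smallest p in each direction, those with a library standing apart, and 2 genes per pathway list. Other genes named (Col8a1, Col10a1, Col13a1, Col16a1, Col17a1, Col23a1, Col25a1, Col26a1, Col27a1, Col28a1, the remaining collagen IV and VIII genes, Serpinh1, Sparc, Itgb1, Ddr1, Calcr, Heyl, Mki67, Top2a, Lyz2, Cd74, Ptprc) were chosen after their values were seen. Marker lists for mural, Schwann, immune and erythroid cells summed to 510.1 to 2252, 153 to 297, 236 to 829 and 8.68 to 1284 TPM over the libraries.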

Additional observations from a re-analysis of the deposited data

Results flagged for a closer look

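In 6 of 80 groups of 4 libraries (40 collagen genes in 2 groups), the library at one end stood apart from the other 3: its gap to the nearest of them, divided by the whole range of log2 CPM, exceeded Dixon's 95% critical value for 4 values. Chance alone flags about 1 in 20 such groups, here 4. High libraries numbered 5 made up 4 of the 6. Col2a1 stood apart in control 5 (ratio 0.922, 178 fragments beside at most 3) and in RhoA het 5 (ratio 0.847, 521 fragments beside at most 11). Col1a2 stood apart in RhoA het 5 (ratio 0.879, 152 TPM beside at most 58.2 TPM), and Col15a1 in control 5 (ratio 0.846, 204 TPM beside at most 55.5 TPM). Col24a1, a minor fibrillar collagen, was low in RhoA het 7 (ratio 0.875, 0.0392 TPM beside at least 0.403 TPM). Col6a5 was high in control 2 (ratio 0.835, 1.498 TPM beside at most 0.336 TPM), and the same library held the most Col6a4 (0.656 TPM).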

How the results depend on the processing

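Under every alternative run (other scalings, filters, tools, pseudocounts, the replicate block and each library left out), 0 of the collagen genes and 0 of the pathway genes passed an adjusted p of 0.05, and so did 0 of all genes, except that the replicate block called 2 genes (0.0127%), Acta1 and Atp2a1, neither a collagen. The block changed no other call. The lowest adjusted p of a collagen gene was 0.788 under the block and 0.815 with the block as a random effect, both for Col9a2. Of 662 fold changes of named genes recomputed under an alternative, 582 kept their sign and 80 (24 genes) changed it, and 0 crossed the threshold. The cause was not tested. With scaling to total counts without TMM the log2 fold change was 0.016 for Col15a1 and 0.0064 for Col6a1. With limma on log2(TPM + 1) the log2 fold change was 0.093 for Col15a1, 0.088 for Col1a2, 0.18 for Col3a1, 0.0019 for Col4a6, 0.067 for Col5a2 and 0.13 for Col6a1. With limma on log2(TPM + 0.1) the log2 fold change was 0.094 for Col15a1, 0.092 for Col1a2, 0.18 for Col3a1, 0.069 for Col5a2, 0.13 for Col6a1 and 0.043 for Col6a6. With the replicate block over the 3 pairs the log2 fold change was 0.032 for Col20a1, -0.41 for Col24a1, 0.12 for Col6a6, -0.075 for Tgm2, -0.0089 for Adgrg1 and -0.13 for Dll4. With the same 6 libraries with no replicate block the log2 fold change was -0.18 for Col24a1, -0.060 for Col5a1 and -0.054 for Col5a3. With the replicate block as a random effect over 8 libraries the log2 fold change was -0.30 for Col24a1, 0.036 for Col3a1, 0.023 for Col6a1 and 0.15 for Col6a6. With both libraries numbered 5 left out the log2 fold change was 0.076 for Col15a1, 0.11 for Col1a2, 0.26 for Col3a1, 0.11 for Col5a2 and 0.11 for Col6a1. Leaving out each library in turn, the log2 fold change ran from -0.14 to 0.54 for Col11a1, -0.53 to 0.59 for Col15a1, -0.077 to 0.48 for Col18a1, -0.62 to 1.29 for Col1a1, -0.68 to 0.61 for Col1a2, -0.60 to 0.018 for Col20a1, -0.093 to 0.59 for Col24a1, -2.41 to 5.67 for Col2a1, -0.56 to 0.74 for Col3a1, -0.080 to 0.74 for Col4a1 and -0.15 to 0.90 for Col4a2. It ran from -0.40 to 0.18 for Col4a6, -0.22 to 0.60 for Col5a1, -0.26 to 0.29 for Col5a2, -0.27 to 0.90 for Col5a3, -0.26 to 0.36 for Col6a1, -0.032 to 0.40 for Col6a2, -0.20 to 0.62 for Col6a3, -1.41 to 0.36 for Col6a5, -0.59 to 0.10 for Col6a6, -0.57 to 0.13 for Col7a1 and -0.18 to 0.75 for Tgm2. Leaving out both libraries numbered 5 was an alternative chosen after seeing the data. The variation between libraries of a group that edgeR estimated over all genes was 33.3% in the fit of 8 libraries without a block. In the block fit, which holds only the 6 libraries of the 3 pairs, the variation left after removing the replicate number was 17.4%. The 95% interval lay within a 2-fold change for 13 and 29 of 40 collagen genes in these fits. Both the block and the set of libraries differ between them, so their parts cannot be told apart. Genes below 1 TPM rest on few fragments.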

Other observations

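Other genes of cartilage were looked at after the values of Col2a1, Col9a1 and Col10a1 had been seen. Acan, the cartilage proteoglycan aggrecan, had 1, 14, 7 and 19 fragments in control 2, 5, 7 and 8 and 38, 6, 0 and 4 fragments in RhoA het 5, 6, 7 and 8, so control 8 exceeded control 5. Cnmd, the cartilage protein chondromodulin, had 28 and 40 fragments in control 5 and RhoA het 5 and 2 to 17 fragments elsewhere. Matn1, another cartilage matrix gene, had 0 fragments in every library. The transcription factor gene Sox9 was expressed throughout, with 11694 and 12416 fragments in the libraries numbered 5 and 5150 to 9108 in the others.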
